A study of Homo sapiens with 10 samples.

Results

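The H3K27ac landscape of 10 genes that decide between cell survival and apoptosis was examined in SKBR3 and MDA-MB-453 cells with and without the cytokine TWEAK. The members are 5 survival genes (BCL2, BCL2L1, BCL2A1, MCL1 and CFLAR) and 5 death genes (BCL2L11, BAX, BAK1, BBC3 and PMAIP1), of 19962 protein-coding genes measured in the same way. For each member, the peaks overlapping its GENCODE gene body and 50 kb on each side were collected from all 8 peak lists of the study, in hg38 coordinates. These windows held 97 merged regions of the 76044 merged regions of the series.

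SKBR3 and MDA-MB-453 are established HER2 breast cancer cell lines, and each is 1 line standing for its subtype. All cultures, controls included, were serum starved for 8 h. The untreated cells received no TWEAK, and the treated cells received TWEAK at 10 ng/ml for 48 h, replenished at 24 h. Each of the 4 groups had 2 libraries, described as biological replicates in the study's methods, so the p-values measure the spread between these few libraries.

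H3K27ac, acetylation of lysine on histone H3, is a mark of active promoters and enhancers. Proteins of the BCL2 family control the permeability of the outer mitochondrial membrane: BCL2, BCL-XL (from BCL2L1), BCL2A1 and MCL1 hold it closed, BAX and BAK form the pores that release cytochrome c, and the BH3-only proteins BIM (BCL2L11), PUMA (BBC3) and NOXA (PMAIP1) tip the balance towards pore formation. CFLAR encodes c-FLIP, which restrains caspase-8 at death receptors. TWEAK is a ligand of the TNF superfamily that signals through its receptor Fn14 to NF-kB and MAP kinase pathways, and BCL2A1 and CFLAR are textbook targets of NF-kB.

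The SKBR3 lists held between 43684 and 51687 peaks and the MDA-MB-453 lists between 36148 and 37813, covering 92.1 to 106 Mb and 70.5 to 72.1 Mb. The most peaks were in the library labelled SKBR3 TWEAK replicate 2. The depth of the libraries is unknown, since the lists hold no read counts. All 8 lists had a peak at a transcription start site (TSS) of ERBB2, GRB7, GATA3, FOXA1, KRT8, KRT18, EPCAM and SPDEF, genes of the HER2 amplicon and of luminal epithelium, and none had one at PTPRC, CD3E, PECAM1, COL3A1 or KRT14, markers of other cells. COL1A1, a fibroblast collagen gene, had a TSS peak in all 8 lists, at percentiles of 79.3 to 92.3 in SKBR3 and 99.6 to 99.7 in MDA-MB-453. ESR1 had one in 1 list of each line. KRT5, a basal keratin, had one only in the 2 SKBR3 TWEAK lists, at percentiles of 46.7 and 59.7. The part of these genes in the results below was not tested. In a culture measured in bulk, more cells carrying the mark and more mark per cell cannot be told apart.

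The sequences below belong to the 3 members with an unadjusted p under 0.05 for TWEAK on the peak length of their SKBR3 windows, of which BCL2A1 alone passed adjustment. The first pair is the 250 bases upstream of the start of BCL2A1 and of PMAIP1, read from RefSeq on GRCh38.p14 with each CpG in capitals. BCL2A1 is the only member without a TSS peak, and PMAIP1 has one in all 8 lists. The BCL2A1 stretch lies at chr15:79971197-79971446 on the minus strand and the PMAIP1 stretch at chr18:59899746-59899995 on the plus strand.
BCL2A1: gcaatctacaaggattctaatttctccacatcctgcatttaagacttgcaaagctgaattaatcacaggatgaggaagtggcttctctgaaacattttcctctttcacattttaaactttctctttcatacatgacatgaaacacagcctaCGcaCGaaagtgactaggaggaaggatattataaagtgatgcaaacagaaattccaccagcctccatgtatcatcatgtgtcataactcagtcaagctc
PMAIP1: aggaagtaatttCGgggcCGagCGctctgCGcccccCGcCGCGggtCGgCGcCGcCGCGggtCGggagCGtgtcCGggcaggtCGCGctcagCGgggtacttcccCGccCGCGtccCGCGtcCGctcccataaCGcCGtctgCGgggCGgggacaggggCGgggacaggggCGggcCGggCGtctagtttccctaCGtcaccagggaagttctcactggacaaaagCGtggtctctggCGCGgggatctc
The BCL2A1 promoter held 2 CpG dinucleotides at a GC content of 38.8%, and 22.9% of the 35116 RefSeq promoters held as many or fewer. The PMAIP1 promoter held 36 at a GC content of 72.8%, and 96.0% of promoters held as many or fewer. The median promoter held 11. RefSeq promoters were matched for 9 of the 10 members, all but MCL1.

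The second set is taken from 4 regions described below, 3 of them distal, at BCL2A1 and PMAIP1, and 1 at an alternative start in the CFLAR gene body, as read on the plus strand of hg38 with the matched motif in capitals. Matches were sought on both strands, to the NF-kB consensus and to the AP-1 consensus, spelled TGACTCA or TGAGTCA. The first 3 stretches lie at chr15:79966073-79966132, chr15:79990381-79990440 and chr15:79990479-79990538, the PMAIP1 stretches at chr18:59908574-59908633 and chr18:59910444-59910500, and the CFLAR stretch at chr2:201151362-201151418.
BCL2A1 intron, NF-kB: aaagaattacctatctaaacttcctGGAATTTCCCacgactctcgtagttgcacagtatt
BCL2A1 upstream, first NF-kB: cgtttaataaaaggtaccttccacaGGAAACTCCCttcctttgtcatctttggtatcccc
BCL2A1 upstream, second NF-kB: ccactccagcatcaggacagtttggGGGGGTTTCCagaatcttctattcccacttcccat
PMAIP1 downstream, NF-kB: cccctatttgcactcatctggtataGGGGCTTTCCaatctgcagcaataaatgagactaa
PMAIP1 downstream, AP-1: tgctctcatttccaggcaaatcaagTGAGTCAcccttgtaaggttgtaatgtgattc
CFLAR intron, AP-1: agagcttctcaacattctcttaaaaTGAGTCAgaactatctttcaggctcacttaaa
The region in the BCL2A1 intron held 1 NF-kB match, as at least 1 did in 14.2% of merged regions within 20% of its width, and the upstream region held 2, with at least 1 in 19.3% of regions of like width. The PMAIP1 region held 2 NF-kB matches and 3 AP-1 matches, against shares of 37.6% and 51.1% with at least 1. The CFLAR region held 5 AP-1 matches, with at least 1 in 64.5% of regions of like width, and 0 NF-kB matches, where 49.7% held 1 or more. Both BCL2A1 regions held 0 AP-1 matches, where 26.6% and 32.8% held 1 or more. Among the RefSeq promoters, 5.21% held an NF-kB match and 4.203% an AP-1 match. A match describes the letters of a stretch and is not evidence of binding.

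Each gene was given 3 readouts in each list. The rank is the percentile, among all peaks of the list by the score in the fifth column, of the highest-scoring peak within 1 kb of any TSS of the gene, so that 100 is the top of the list. The width is the length of that peak. The covered length is the number of kb under peaks in the window. They were tested between lines and with TWEAK in limma fits over all genes with values, and genes were called at a Benjamini-Hochberg adjusted p under 0.05. Each of these fits gave a gene the same spread in both lines, so a p for TWEAK in either line also rests on the other. The covered share of every member window varied less over the MDA-MB-453 libraries than over the SKBR3 ones. For covered length, a p for TWEAK may thus be too small in SKBR3 and too large in MDA-MB-453.

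Among the survival genes, MCL1, CFLAR and BCL2L1 carried highly ranked TSS peaks in both lines, BCL2 a weak one, and BCL2A1 none. BCL2A1 had no peak within 1 kb of a TSS in any of the 8 lists. BCL2 stood at percentiles of 1.57 and 30.5 in untreated SKBR3, at 27.8 in the second TWEAK list and without a peak in the first, and between 46.2 and 53.0 in the 4 MDA-MB-453 lists. It was not tested because 1 list lacked the peak, and all its MDA-MB-453 values lay above all its SKBR3 values.

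The MCL1 peak ranked at 99.0, 97.5, 99.2 and 98.7 in the SKBR3 lists, untreated first, and at 85.4, 88.1, 86.8 and 87.3 in the MDA-MB-453 lists. In SKBR3 a single peak of 22861 to 23493 bp, within chr1:150558024-150581575, ran across MCL1 and reached a TSS of the neighbouring gene ADAMTSL4. In MDA-MB-453 the same stretch was split, and the peak at the MCL1 start was 5458 to 6845 bp wide. The top peak of the whole stretch ranked at 96.2, 97.5, 96.9 and 95.7 there, so that the lines overlapped over the stretch but not at the MCL1 start. The mean width was 3.75-fold larger in SKBR3 (23220 ± 263 bp against 6195 ± 722 bp, SD, n = 4 each, exact permutation p = 0.0286, the smallest that 4 against 4 libraries can give).

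BCL2L1, whose main product is BCL-XL, showed the opposite order. Its TSS peak ranked at 87.8, 94.1, 87.7 and 93.2 in SKBR3 and between 98.3 and 98.8 in MDA-MB-453, and the lines did not overlap. Its width was alike, with means of 7965 ± 396 bp and 8033 ± 451 bp (SD, n = 4 each, exact permutation p = 0.743). CFLAR ranked between 93.7 and 95.6 in SKBR3 and between 92.5 and 94.4 in MDA-MB-453, and the lines overlapped. Its peak was narrower in SKBR3, at 3637 to 4793 bp against 5711 to 6049 bp.

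The death genes differed between the lines in both directions. BBC3, which encodes PUMA, stood near the top of the SKBR3 lists at 99.1, 99.2, 99.2 and 98.7, and in the middle of the MDA-MB-453 lists at 67.3, 64.6, 67.1 and 65.5. BAK1, encoding the pore-forming protein BAK, stood at 85.7, 83.0, 85.0 and 83.3 in SKBR3 and at 52.7, 55.8, 55.5 and 55.1 in MDA-MB-453. For both genes every SKBR3 value lay above every MDA-MB-453 value. In the second untreated SKBR3 list the BBC3 value belongs to a peak 2.0 to 6.0 kb into the gene, and the separate peak over the canonical start ranked at 35.9, below all MDA-MB-453 values. The 3 other SKBR3 lists had a single peak across both, and in MDA-MB-453 untreated replicate 1 and TWEAK replicate 2 the value and the width are those of an inner peak as well. At the canonical start alone the line difference was 1.30 (SE 0.486, adjusted p = 0.0452), and that in width did not pass (adjusted p = 0.0639).

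BCL2L11, which encodes BIM, showed the reverse. Its peak ranked at 68.8, 66.1, 58.3 and 53.2 in SKBR3 and at 91.6, 91.1, 92.1 and 91.8 in MDA-MB-453. In the first list of each SKBR3 group the top peak was a neighbouring one, which starts 3.69 kb and 3.65 kb upstream of the canonical start, and the region at the canonical start ranked at 60.9, 66.1, 57.4 and 53.2. PMAIP1, encoding NOXA, also ranked lower in SKBR3, at 49.8, 50.3, 55.2 and 41.0 against 62.6 to 64.5. BAX varied widely between the SKBR3 lists, from 29.6 to 73.9, around the narrow range of 45.4 to 46.8 in MDA-MB-453.

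**Figure D1:**
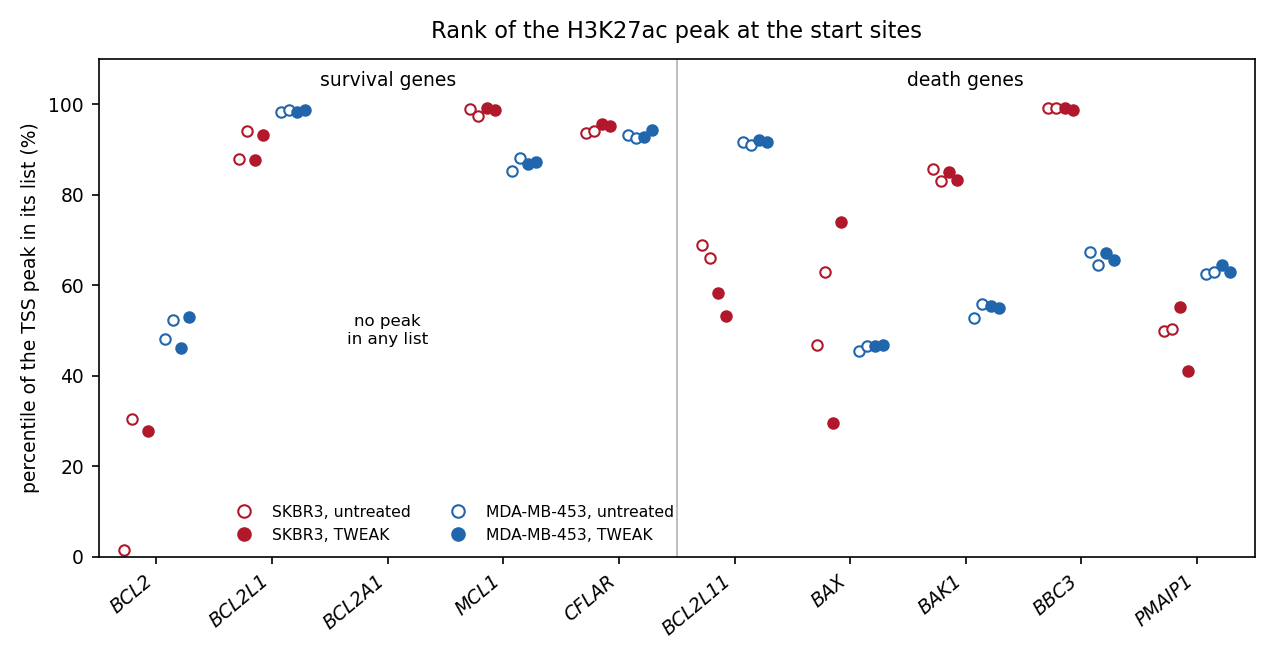
Percentile in its list of the highest-scoring H3K27ac peak within 1 kb of a TSS (vertical axis, %) for the 10 members, with 1 point per library, SKBR3 in red, MDA-MB-453 in blue, untreated open and TWEAK filled. BBC3, BAK1 and MCL1 sit higher in SKBR3, BCL2L11, BCL2L1 and PMAIP1 sit higher in MDA-MB-453, BCL2A1 has no peak in any list, and BCL2 has none in the first SKBR3 TWEAK list.

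On the rank, 3 members were called higher in SKBR3 and 3 lower of 8 tested, where the background over 10325 genes was 33.9% higher and 30.4% lower. With differences in normal score of the rank, SKBR3 minus MDA-MB-453, the higher genes were BBC3 at 1.93 (SE 0.0704, adjusted p = 2.01e-06), MCL1 at 1.10 (SE 0.0956) and BAK1 at 0.89 (SE 0.0676). The lower genes were BCL2L11 at -1.08 (SE 0.0677, adjusted p = 1.08e-05), BCL2L1 at -0.84 (SE 0.115) and PMAIP1 at -0.36 (SE 0.0891, adjusted p = 0.00803). CFLAR (0.12, adjusted p = 0.155) and BAX (0.18, adjusted p = 0.515) did not pass. The called survival genes thus divided 1 to 1 and the called death genes 2 to 2, near the even split of the background. PMAIP1 was not called with a replicate block (adjusted p = 0.0763) or in the untreated libraries alone (0.0632). With lists cut to equal length that split moved from 3503 higher and 3138 lower genes to 2244 and 3886, and the median over all genes from 0.019 to -0.14.

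On the width, 3 members were called wider in SKBR3 and 3 narrower of 8 tested, where 18.8% of genes were wider and 33.1% narrower. MCL1 (1.91 on the log2 scale, adjusted p = 8.27e-05), BBC3 (1.52, adjusted p = 0.0167) and BAK1 (1.42, adjusted p = 0.000532) were wider. BAX (-1.63, adjusted p = 0.000338), BCL2L11 (-0.97, adjusted p = 0.0261) and CFLAR (-0.49, adjusted p = 0.0169) were narrower. For BCL2L11 the first list of each SKBR3 group gives the neighbouring upstream peak, at 1689 and 1536 bp. The second lists give the peak at the start, at 3015 and 2900 bp, against 4104 to 4555 bp in MDA-MB-453. The BAX peak was 338 to 496 bp in SKBR3 and 996 to 1574 bp in MDA-MB-453. The calls for BBC3, BCL2L11 and CFLAR were lost in the untreated libraries alone (adjusted p = 0.0976, 0.104 and 0.0589). Leaving out 1 library lost the CFLAR call for each MDA-MB-453 library (adjusted p 0.0531 to 0.0558). It lost the BCL2L11 call for each of these and the first library of both SKBR3 groups (0.0505 to 0.0811), and the BBC3 call for MDA-MB-453 untreated replicate 2 or TWEAK replicate 1 (0.0554 and 0.0546).

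The windows gave a broader view, since they take in distal elements and the promoters of neighbouring genes. Per length, the MCL1 and BCL2L1 windows were the most covered, with 36.8% ± 2.52 and 33.6% ± 2.96 of the window under peaks in SKBR3 and 22.99% ± 0.782 and 26.6% ± 1.13 in MDA-MB-453 (SD, n = 4 each), and their ranges overlapped in SKBR3. The BCL2 window was covered over 1.95% ± 0.394 and 1.72% ± 0.0981. In MDA-MB-453 the PMAIP1 window was lower still, at 1.31% ± 0.143, with its TSS peak as its whole content, while in SKBR3 it reached 5.96% ± 2.79.

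**Figure D2:**
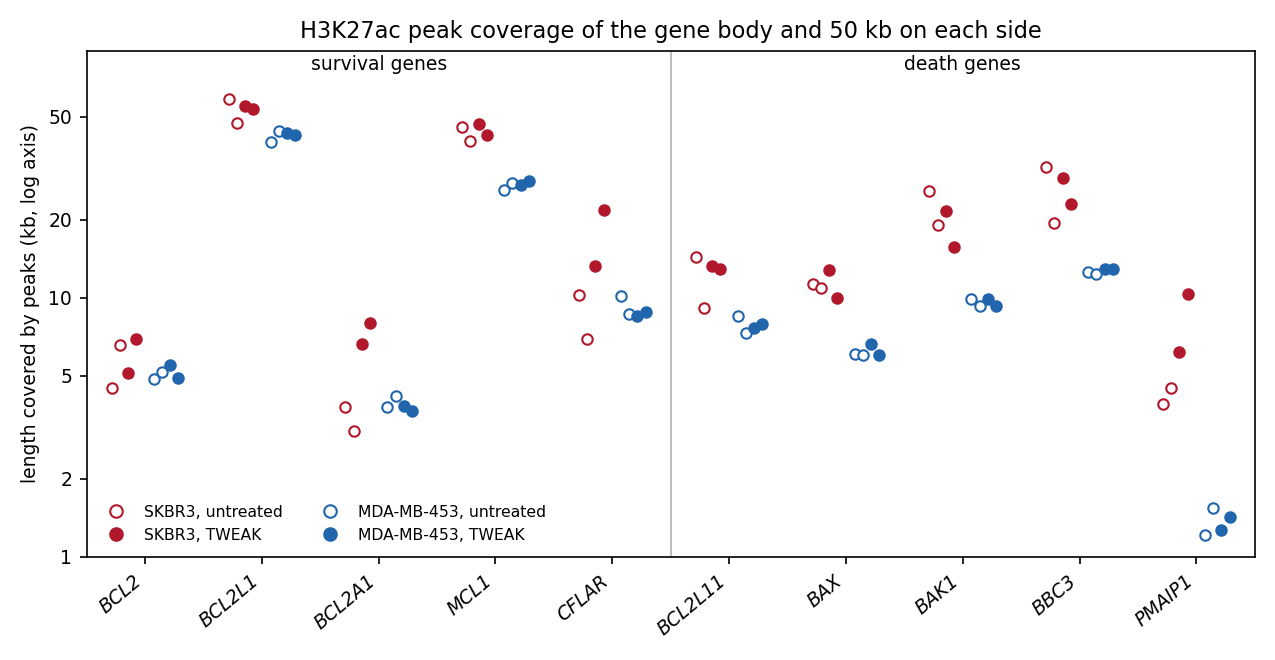
Length under H3K27ac peaks in the gene body and 50 kb on each side (vertical axis, kb, log scale) for the 10 members, with 1 point per library, SKBR3 in red, MDA-MB-453 in blue, untreated open and TWEAK filled. All 5 death genes, and MCL1 and BCL2L1 among the survival genes, have every SKBR3 library above every MDA-MB-453 library. Of all genes 46.5% were called higher in SKBR3 by limma, and the share without overlap was not counted. In SKBR3 the TWEAK points of BCL2A1, CFLAR and PMAIP1 lie above the untreated ones.

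All 5 death genes and 3 of the 5 survival genes had more covered length in SKBR3, and no member had less. The background was 46.5% of 18542 genes higher and 26.9% lower. The PMAIP1 window held 3.88, 4.49, 6.17 and 10.3 kb in SKBR3 and 1.22 to 1.54 kb in MDA-MB-453, a 4.56-fold difference in means (exact permutation p = 0.0286). The BAK1 window held 25.8, 19.1, 21.6 and 15.7 kb against 9.27 to 9.94 kb, and the BBC3 window 31.9, 19.4, 29.1 and 23.1 kb against 12.3 to 13.0 kb.

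On the scale of log2(kb + 1), which understates the change of short lengths, the difference was 1.53 for PMAIP1 (SE 0.148), 1.00 for BAK1, 0.95 for BBC3, 0.77 for BAX and 0.58 for BCL2L11. It was 0.66 for MCL1, 0.33 for BCL2L1 and 0.31 for BCL2A1, with adjusted p of 0.0187 or less for these 8. CFLAR (0.38, adjusted p = 0.0907) and BCL2 (0.14, adjusted p = 0.385) did not pass. The median was 0.95 over the death genes, 0.33 over the survival genes and 0.22 over all genes.

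The SKBR3 lists also cover more of the genome. Divided by the total covered length of each list, the median over all genes moved from 0.22 to -0.13 and the called genes from 8622 higher and 4979 lower to 5942 and 7971. With that scaling BCL2L1 (-0.11) and BCL2A1 (-0.053) turned negative and lost their calls, BCL2L11 (0.18, adjusted p = 0.259) lost its call, and the other 5 called members remained higher. In the untreated libraries alone BCL2A1 was lower in SKBR3 (-0.17, adjusted p = 0.286), and with 10 kb flanks BAX was lower (-0.095, adjusted p = 0.471). The exact permutation test gave 0.0286 for 7 of the 8 called members, and 0.371 for BCL2A1, whose lines overlapped. Leaving out 1 library lost the BCL2L1 call without MDA-MB-453 untreated replicate 1 (adjusted p = 0.0537) and the BCL2A1 call without that library or either MDA-MB-453 TWEAK library (0.0506 to 0.0671).

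**Figure D3:**
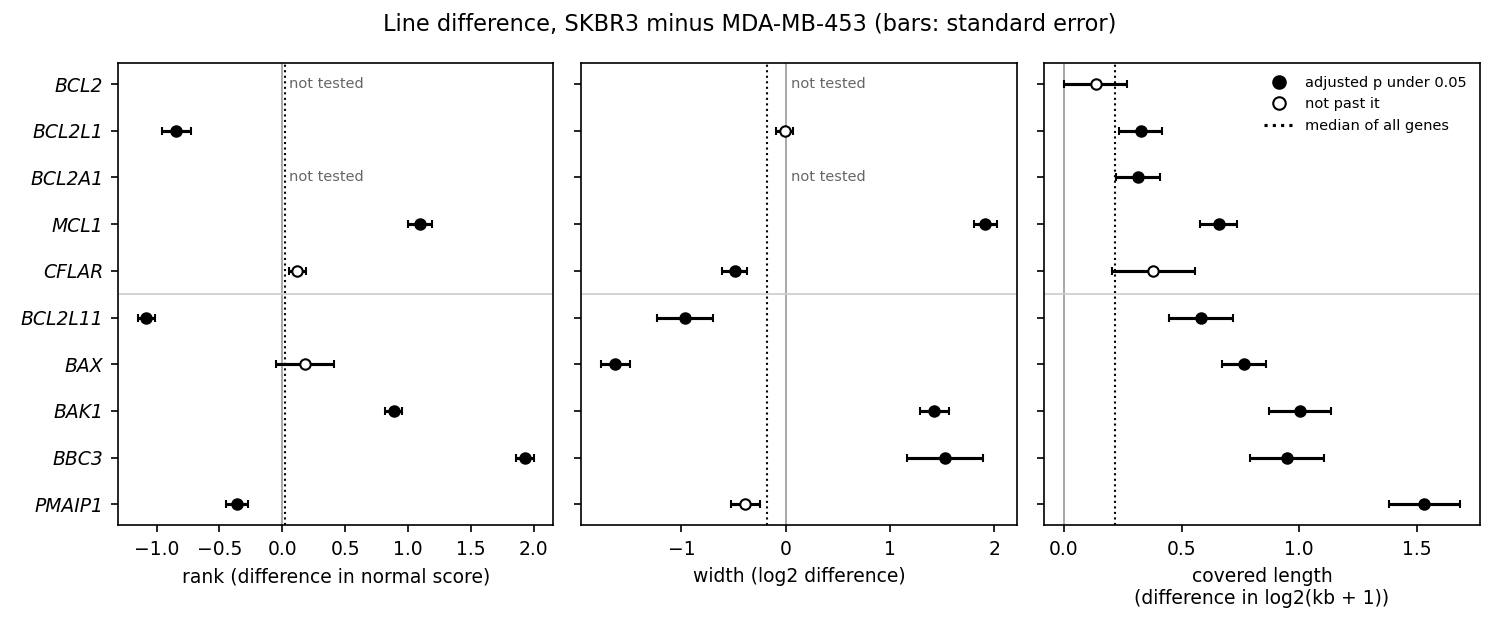
Difference between the lines, SKBR3 minus MDA-MB-453, in the rank of the TSS peak (normal score), its width (log2) and the covered length of the window (log2 of kb + 1), with the standard error from limma as bars, filled points past an adjusted p of 0.05 and a dotted line at the median of all genes. Rank and width differ in both directions, with 3 members called each way, while the 8 called covered lengths all lie to the right of 0.

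Of the 97 merged regions in the windows, 30 (30.9%) were in all 8 lists, where 23.3% of all regions were. In SKBR3, 7 (7.22%) were in all 4 lists and in no MDA-MB-453 list, against 14.1% of all regions, and 1 (1.03%) was in all 4 MDA-MB-453 lists only, against 10.5%. A further 52 (53.6%) were in 1 to 3 SKBR3 lists only, against a background of 32.5%, and 2 (2.06%) in 1 to 3 MDA-MB-453 lists only, against 9.19%. In all, 40 of the 96 regions present in SKBR3 were in all 4 of its lists, and 34 of the 42 present in MDA-MB-453.

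The regions found in SKBR3 alone lay at 7 members. The PMAIP1 region at chr18:59915473-59919732, 17.6 kb downstream of the start, ranked at 68.5, 73.0, 71.6 and 82.0. In the CFLAR gene body, chr2:201128653-201131348 ranked at 58.7, 39.6, 65.9 and 61.6, at an alternative CFLAR start. The BAX window held one at a GYS1 start, chr19:48977448-48980914, at 83.3, 58.5, 80.9 and 70.1, and the MCL1 window held chr1:150527595-150529563 at 55.7 to 75.0. The others, at BCL2L1, BAK1 and BBC3, ranked between 3.11 and 61.1. The region of MDA-MB-453 alone lay at chr18:63322425-63323114, 3.0 kb upstream of BCL2, at 15.0, 28.7, 33.4 and 12.7.

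Some shared regions changed places between the lines. An intronic BCL2L11 region, chr2:111137246-111142042, ranked at 92.8, 84.6, 90.5 and 88.3 in SKBR3 and between 63.1 and 69.7 in MDA-MB-453, the reverse of the order at the BCL2L11 start. The top region of the BBC3 window lay at a start of INAFM1, chr19:47272560-47275217, and ranked between 99.2 and 99.6 in all 8 lists, while the top peak near the BBC3 starts differed. In the BAK1 window, chr6:33597705-33601715 ranked at 92.5 to 93.6 in MDA-MB-453 and 80.8 to 86.5 in SKBR3, against the order of the BAK1 start.

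TWEAK left the start sites of the members without a called change. On the rank, 0 of 8 members passed in SKBR3 by limma, with 1 at an unadjusted p under 0.05 and a background of 0.223%, and 0 of 8 passed in MDA-MB-453, with 0 at an unadjusted p under 0.05 and a background of 0.0194%. The member in SKBR3 was BCL2L11, whose mean percentile was 67.5 ± 1.91 untreated and 55.8 ± 3.59 with TWEAK (SD, n = 2 each, difference of -0.31 in normal score, limma adjusted p = 0.305). These means mix peaks, since the first list of each group gives the neighbouring upstream peak. The region at the canonical start ranked at 60.9 and 66.1 untreated and at 57.4 and 53.2 with TWEAK. Its difference was -0.21 (SE 0.184, limma on region ranks in SKBR3, adjusted p = 0.851). On the width, 0 of 8 passed in SKBR3 by limma, with 0 at an unadjusted p under 0.05 and a background of 1.05%. In MDA-MB-453 0 of 8 passed, with 1 at an unadjusted p under 0.05, BAX (0.54, adjusted p = 1.00), and a background of 0.0194%.

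In SKBR3 the windows of BCL2A1, CFLAR and PMAIP1 held more peak length in both TWEAK lists than in both untreated ones. The BCL2A1 window held 3.80 and 3.06 kb in the untreated lists and 6.62 and 7.98 kb in the TWEAK lists (means of 3.43 ± 0.519 and 7.30 ± 0.958 kb, SD, n = 2 each). The CFLAR window held 10.3 and 6.95 kb untreated and 13.3 and 21.8 kb with TWEAK (8.61 ± 2.35 and 17.5 ± 6.003 kb). The PMAIP1 window held 3.88 and 4.49 kb untreated and 6.17 and 10.3 kb with TWEAK (4.19 ± 0.425 and 8.25 ± 2.95 kb). In all 3 the second TWEAK library, which has the most peaks of all lists, was the highest. These are the 3 members with an unadjusted p under 0.05 by limma on this same length, as 2720 of 18542 genes had. Their separation is thus not a separate result, and the share of all genes that separate in this way was not counted. In MDA-MB-453 the same windows held 3.67 to 4.19, 8.54 to 10.2 and 1.22 to 1.54 kb, and the treated and untreated lists overlapped for each.

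Of the 10 members tested, 1 was called higher with TWEAK in SKBR3 and 0 lower by limma, where the background was 1.61% higher and 0.216% lower, and 3 had an unadjusted p under 0.05. Over all genes 298 were higher and 40 lower, and with lists of equal length 306 and 100. The called gene was BCL2A1, with a difference of 0.91 (SE 0.132, adjusted p = 0.0276). This value rests on a spread shared with MDA-MB-453, where the window varied less, and covered length was not fitted in SKBR3 alone. CFLAR (0.93, SE 0.251, adjusted p = 0.154) and PMAIP1 (0.80, SE 0.214, adjusted p = 0.151) had differences of like size and did not pass. Scaling to the total covered length of each list left BCL2A1 called at 0.81 (adjusted p = 0.0223), and lists of equal length left it called at 0.85 (adjusted p = 0.0202). The call was lost with a replicate block (adjusted p = 0.0694), with 100 kb flanks (0.301), with peaks at a q-value under 1e-05 (0.200) and without each library other than SKBR3 TWEAK replicate 1 (0.0562 to 0.113). Without that library CFLAR (1.27, adjusted p = 0.0472) and PMAIP1 (1.13, adjusted p = 0.0180) were called as well, but the calls over all genes grew to 1442 higher and 212 lower. The treated arm is then the single list with the most peaks, assumed to vary like the other groups.

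In MDA-MB-453 0 of 10 members were called on covered length by limma, with 0 at an unadjusted p under 0.05, and the background was 0%. Over all 18542 genes, 405 had an unadjusted p under 0.05. The wider spread of the SKBR3 libraries entered this test, so the absence of calls does not show that this line lacks a response. The differences were -0.07 for BCL2A1, -0.10 for CFLAR and -0.02 for PMAIP1. The difference between the 2 lines in the effect of TWEAK was called for 0 of 10 members by limma, with 3 at an unadjusted p under 0.05 and a background of 0.0809%. It was 0.98 for BCL2A1 (SE 0.187, adjusted p = 0.140), 1.03 for CFLAR (adjusted p = 0.445) and 0.82 for PMAIP1 (adjusted p = 0.485), so a difference between the lines was not shown at these replicate numbers. Without SKBR3 TWEAK replicate 1 PMAIP1 was called (1.15, adjusted p = 0.0486), where the calls over all genes grew from 15 to 608 higher and 41 lower. For the rank and the width the same contrast called 0 of 8 members by limma, with 1 and 0 at an unadjusted p under 0.05 and backgrounds of 0.0291% and 0.194%.

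**Figure D4:**
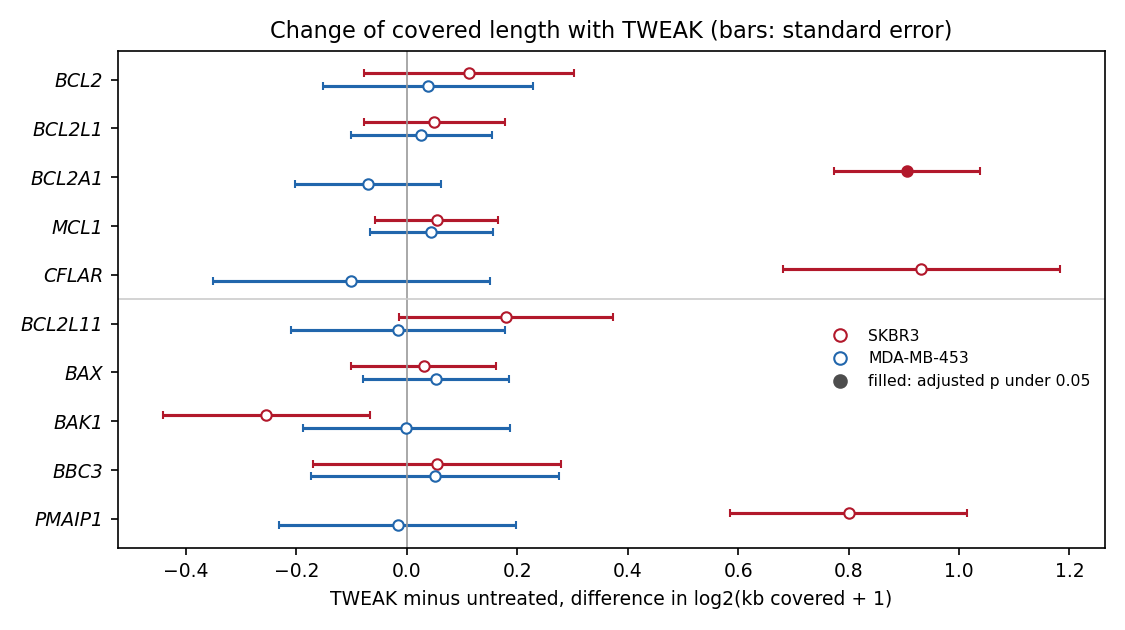
Difference in covered length, TWEAK minus untreated, on the scale of log2(kb + 1) (horizontal axis) for the 10 members in SKBR3 (red) and MDA-MB-453 (blue), with the standard error from limma as bars and the filled point past an adjusted p of 0.05. BCL2A1 at 0.91, CFLAR at 0.93 and PMAIP1 at 0.80 lie furthest from 0 in SKBR3, and only BCL2A1 passed. The MDA-MB-453 points lie close to 0. The bars rest on a spread shared by both lines, and no member was called for the difference between the lines.

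A region was counted as gained in a line when each TWEAK list held it and no untreated list did, and as lost in the reverse case. In SKBR3, 6 of 96 regions of the member windows were gained and 2 were lost, where the background was 4.61% and 1.4%. In MDA-MB-453, 0 of 42 were gained and 0 lost, with a background of 1.33% and 1.3%. The SKBR3 gains without 1 library, with the call resting on the remaining 3, were 15 and 11 without untreated replicates 1 and 2, and 20 and 6 without TWEAK replicates 1 and 2. The losses were 8 without untreated replicate 2, and 5 and 6 without TWEAK replicates 1 and 2. Leaving out a library loosens the call for every region. The share of all regions was not counted there, so these numbers cannot be set against the background above.

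At BCL2A1, 2 regions were gained. The first, chr15:79965746-79966854, lies in an intron 4.9 kb into the gene and ranked at 46.0 and 39.1 in the TWEAK lists. The second, chr15:79990031-79991604, lies 19.6 kb upstream of the start and ranked at 20.7 and 30.8. These are the regions whose NF-kB matches are printed above. Of the other gained regions, that in the CFLAR gene body held 1 NF-kB match, and those in the BCL2L1, BAX and MCL1 windows held 0. The region at the BBC3 start, which was in all 8 lists, held 8, and a link between gain and motif was not tested. Next to them, chr15:79993649-79996579, 23.9 kb upstream, was in all 8 lists and ranked at 74.0 and 69.8 in untreated SKBR3, 84.7 and 91.3 with TWEAK, and 56.3 to 63.8 in MDA-MB-453. The 2 SKBR3 groups did not overlap there, but the difference did not pass (limma on the ranks of regions in all 4 lists, 0.61 in normal score, SE 0.206, adjusted p = 0.539). The share of all regions that separate in this way was not counted, so the lack of overlap is not a result of its own. The top region of the window, chr15:79922510-79925034 at a start of ST20-MTHFS, ranked at 93.6 and 93.4 untreated and 92.4 and 91.7 with TWEAK.

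In the CFLAR gene body the gained region, chr2:201125157-201127768, ranked at 2.19 and 43.7. A larger region, chr2:201147999-201153418, 34.5 kb into the gene and at an alternative CFLAR start, was present without TWEAK. It ranked at 31.9 and 6.62 untreated, 62.4 and 88.9 with TWEAK, and only at 9.91 in the second MDA-MB-453 TWEAK list. The rank difference was 1.75 in normal score (SE 0.447, limma adjusted p = 0.429). Unlike these, the promoter peak of CFLAR stood between 93.7 and 95.6 in all 4 SKBR3 lists.

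The distal PMAIP1 region at chr18:59908001-59911589, 9.8 kb downstream of the start, was absent from the first untreated list, stood at 4.26 in the second, and at 62.7 and 82.1 in the TWEAK lists. It was in no MDA-MB-453 list, and it was not counted as gained because of the peak in the second untreated list. The PMAIP1 promoter stood at 49.8 and 50.3 untreated and at 55.2 and 41.0 with TWEAK, so that the treated values lay on either side of the untreated ones.

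**Figure D5:**
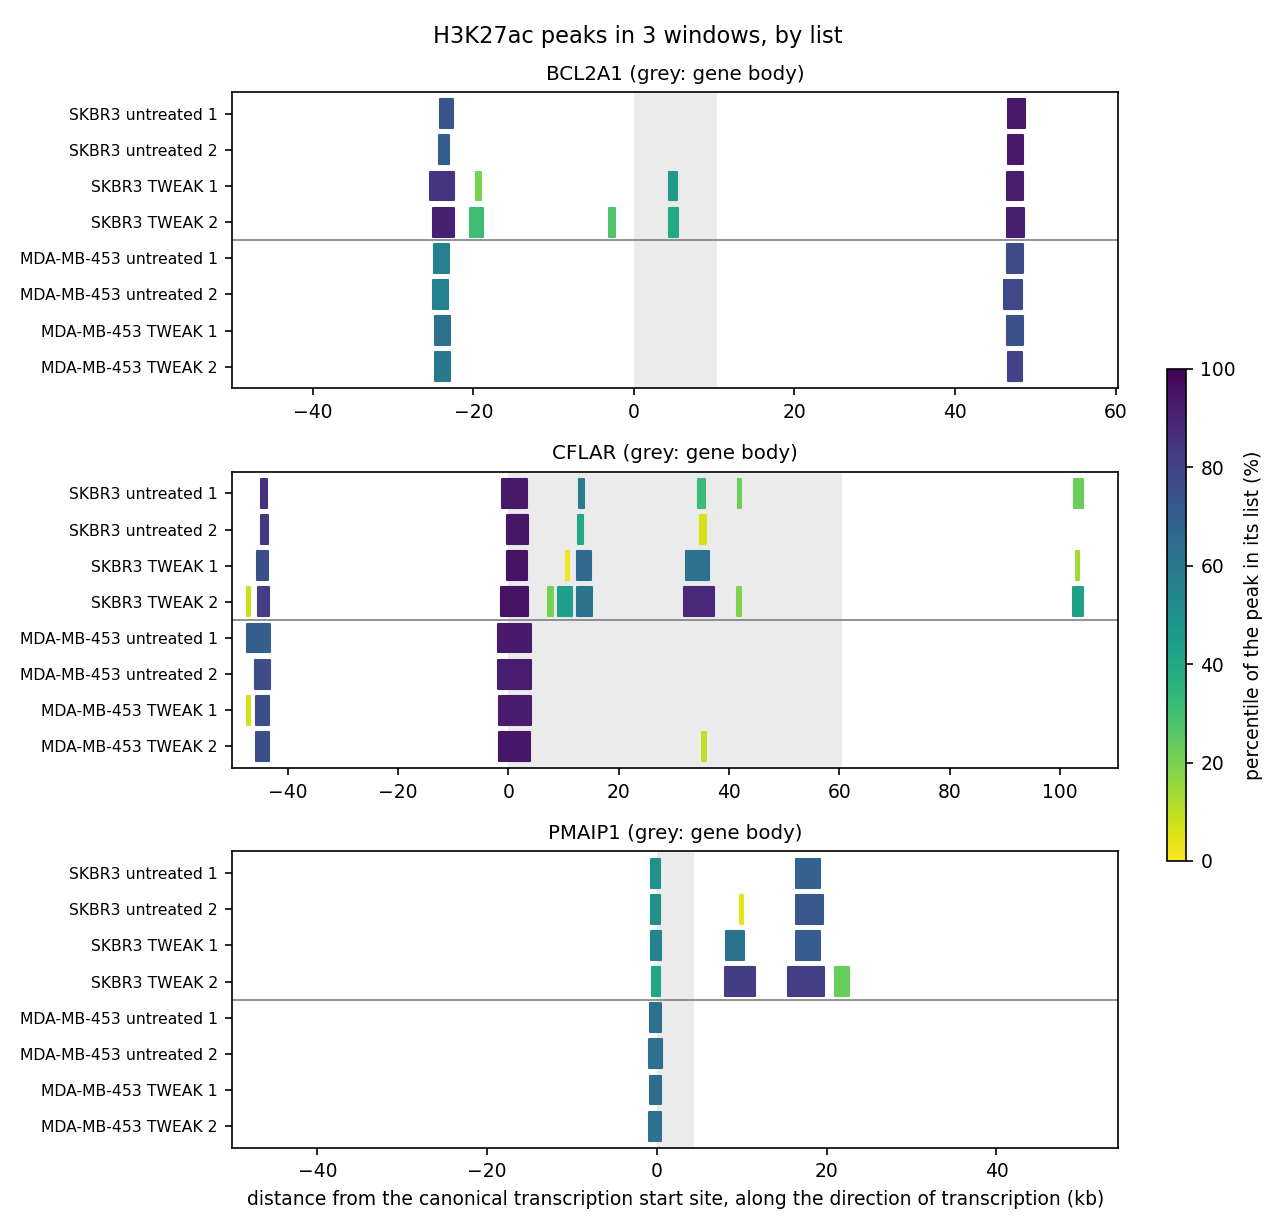
H3K27ac peaks of each list in the windows of BCL2A1, CFLAR and PMAIP1, drawn by distance from the canonical TSS along the direction of transcription (horizontal axis, kb) and coloured by percentile in the list, with the gene body in grey. The 2 SKBR3 TWEAK lists carry peaks inside and 19.6 kb upstream of BCL2A1, a wider block 34.5 kb into CFLAR and a block 9.8 kb downstream of PMAIP1, which the MDA-MB-453 lists lack or hold faintly.

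The other gained regions were chr20:31690835-31692565 in an intron of BCL2L1 at 2.19 and 17.0, chr19:48927108-48928910 in the BAX window at 24.6 and 40.1, and chr1:150615164-150616063 in ENSA, in the MCL1 window, at 3.91 and 5.41. The lost regions were chr6:33585282-33586114, 5.4 kb upstream of BAK1, at 29.8 and 34.9, and chr19:47169746-47171404 in SAE1, in the BBC3 window, at 27.5 and 13.0. All 8 gained or lost regions stood in the lower part of their lists. Survival genes held 5 of the 6 gains and 0 of the 2 losses, and death genes 1 gain and both losses. Of these 5 gains, 2 lay at BCL2A1 and 1 in ENSA, a neighbour of MCL1. The split rests on 8 regions and was not tested. It was not scaled to the number of regions or the length of the windows, which differ between members. Over all SKBR3 regions 4.61% were gained and 1.4% lost, which does not tell how gains divide between survival and death windows. No preference for survival genes can be read from the split. Regions in all 4 lists of a line gave 0 calls on rank over all 30803 tested in SKBR3 (2501 at an unadjusted p under 0.05) and 31162 in MDA-MB-453 (2146), a background of 0% in each.

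Set against each other, the survival genes with a TSS peak had a higher median rank than the death genes in every list, which was not tested. The median percentile of the survival genes, over 3 or 4 genes with a peak, was 89.3 to 95.6, that of the 5 death genes 58.3 to 73.9, and that of all genes with a TSS peak 77.7 to 81.5. Single genes did not follow it: in SKBR3 BCL2 lay below every death gene where it had a peak. The median leaves out BCL2A1, which has no TSS peak, and the top death gene differed by line, with BBC3 at 98.7 to 99.2 in SKBR3 and BCL2L11 at 91.1 to 92.1 in MDA-MB-453.

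A further 20 genes of the pathway (other BCL2 relatives, adaptors, mitochondrial factors and caspases) gave the context. On the rank, 3 of 14 tested were higher in SKBR3 (BAD, DIABLO and CYCS) and 5 lower (CASP9, FADD, APAF1, BCL2L2 and BCL2L13). On the width 2 were higher and 4 lower of 14, and on covered length 9 higher and 6 lower of 20. Over all genes, 33.9% were higher and 30.4% lower on the rank. The shares were 18.8% and 33.1% on the width, and 46.5% and 26.9% on covered length. With TWEAK, 0 of 14 were called on the rank in either line by limma (2 at an unadjusted p under 0.05 in SKBR3 and 1 in MDA-MB-453), 1 of 14 on the width in each line, and on covered length 1 of 20 in SKBR3 and 0 in MDA-MB-453 (1 at an unadjusted p under 0.05). For TWEAK, the backgrounds were 0.223% and 0.0194% for rank in SKBR3 and MDA-MB-453, and 1.05% and 0.0194% for width. For covered length they were 1.61% higher and 0.216% lower in SKBR3, and 0% in MDA-MB-453. BID, a BH3-only protein that links death receptors to mitochondria, had 9.8 and 8.5 kb covered in untreated SKBR3 and 14.3 and 16.6 kb with TWEAK (0.70, adjusted p = 0.0456), a call kept in 3 of 17 alternatives (adjusted p 0.0244 to 0.148). For BAD, a BH3-only protein controlled by phosphorylation, the highest-scoring TSS peak was 17529 and 11136 bp wide in untreated SKBR3. With TWEAK it was 3566 and 3091 bp wide (-2.07, adjusted p = 0.0161), a call kept in 9 of 15 alternatives. At the canonical start alone the difference was -0.24 (adjusted p = 0.656), so different peaks may have been read in different lists. The percentile was 93.9 and 96.2 untreated and 94.3 and 98.0 with TWEAK. The TSS peak of BMF, a BH3-only protein tied to the cytoskeleton, was 7495 and 7062 bp wide in untreated MDA-MB-453 and 1663 and 1358 bp with TWEAK (-2.28, adjusted p = 0.0154), a call kept in 8 of 15 alternatives (adjusted p 0.00866 to 0.314). The stretch was still covered, since the 1 untreated peak was listed as 2 peaks with TWEAK, which together covered 6569 and 6615 bp, and the smaller ranked higher.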

How the data were processed

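The data were H3K27ac ChIP-seq peaks called in SKBR3 and in MDA-MB-453, untreated or given TWEAK, with 2 libraries per group and 8 in all. The 2 input samples were not used here. The study's methods state mapping to hg38 with Bowtie2, peak calling per library with MACS2 against input, and removal of blacklisted regions. The submitters' processing notes also name Trimmomatic and deepTools, with versions not given in the sources used here. Each deposited list has 9 columns in the MACS2 broad layout. The authors' values are a score (column 5), a fold enrichment ratio, and a −log10 p-value and q-value. The score was used to rank peaks within a list, the deposited fold enrichment for an alternative ranking, and the deposited −log10 q-value for a stricter threshold of 5. The study's own comparison of signal (DiffBind) needs reads and was not repeated. Depth is unknown, so no counting interval is given, and a missing peak may lie just under the caller's threshold.

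Genes were the 19962 protein-coding genes of GENCODE 44 on chromosomes 1 to 22 and X. Lists were merged into regions, where any overlap counts as presence. The percentile of the TSS peak (as a normal score), log2 width and log2(kb covered + 1) were fitted with limma 3.58.1 (R 4.3.3) in 4 groups. TSS measures were tested for the 10325 genes with a TSS peak in all 8 lists, and covered length for the 18542 with a peak in the window. Line contrasts average both treatments. Exact two-sided permutation tests compared 26 single values between the lines. With 2 against 2 such a test cannot go below 0.333, so none was made for TWEAK within a line. The limma step was tested on simulated data. Tables were made with Python 3.11.15, pandas 2.3.3, numpy 2.4.6 and scipy 1.17.1.

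The members, the lists and the regions named were chosen with earlier results of these data known. All 10 members were named, with other apoptosis genes where called, gained and lost regions, top regions and line-specific regions, and neighbouring genes whose start lies within 1 kb of such a region. The PMAIP1 region downstream of the gene, the CFLAR region at the alternative start, the BCL2A1 region 23.9 kb upstream, the intronic BCL2L11 region and the region-rank fit were chosen after values were seen. Alternatives covered the block, single libraries, list length, thresholds, flanks, start sites, ranking by fold enrichment, pseudocount, filter and scaling.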

Additional observations from a re-analysis of the deposited data

Results flagged for a closer look

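BMF, among the other apoptosis genes, was the only gene of these lists whose response to TWEAK differed between the lines by a test of that difference. The change in log2 width of its TSS peak in SKBR3 minus that in MDA-MB-453 was 2.18 (SE 0.189, limma adjusted p = 0.0184). In SKBR3 the peak was 8395 and 8122 bp wide untreated and 7647 and 7760 bp with TWEAK, while in MDA-MB-453 the top peak was 7495 and 7062 bp untreated and 1663 and 1358 bp with TWEAK. There the stretch was split into 2 peaks with TWEAK that together covered 6569 and 6615 bp. The value was not called with a replicate block (adjusted p = 0.197) or without any 1 of the MDA-MB-453 libraries (0.0726 to 0.144).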

How the results depend on the processing

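The replicate numbers give 2 pairs per line, which the labels do not tie to a shared culture or day. Deviations of same-numbered libraries correlated in SKBR3 (0.362 for rank, 0.234 for width and 0.465 for covered length) but not in MDA-MB-453 (-0.036, 0.008 and -0.036). With the replicate block, 0 members were called for TWEAK on covered length in SKBR3 in place of 1, and over all genes the calls moved from 108 to 0 for width and from 298 higher and 40 lower to 348 and 38 for covered length. Without a filter the latter were 157 and 46, and the 15 genes called for the difference between lines became 0 with the block and 141 higher and 23 lower with the stricter threshold. The stricter threshold gave 4 regions in SKBR3 alone, 3 in MDA-MB-453 alone, 3 gained and 0 lost in SKBR3, 5 members called between the lines on covered length, and 1 for the difference in TWEAK effect (CFLAR, 1.37, limma adjusted p = 0.0454). At that threshold 6460 of 17536 genes were called higher between the lines on covered length and 5484 lower. Flanks of 10 kb gave 1 region in SKBR3 alone, 3 gained, 1 lost and 2 members called for TWEAK in SKBR3, and flanks of 100 kb 16 in SKBR3 alone, 3 in MDA-MB-453 alone, 4 lost in SKBR3 and 0 members called. Over all genes the TWEAK calls in SKBR3 were 204 higher and 44 lower of 16693 with 10 kb, and 280 and 39 of 19273 with 100 kb. Asking that peaks cover at least 50% of a region gave 2 in MDA-MB-453 alone and 1 lost in each line. For the stricter threshold, the flanks and this rule, the share of all regions called was not counted. Untreated libraries alone gave 3 members called on width and 5 on covered length, scaling by total covered length gave 5, and no filter gave 0 called for TWEAK in SKBR3. Over all genes the untreated libraries gave 1415 wider and 2104 narrower of 10325, and 7493 higher and 4195 lower of 18542 on covered length. With scaling 5942 were higher and 7971 lower. Line differences in covered length reversed for BCL2L1 (scaled, -0.11), BCL2A1 (scaled, -0.053, and untreated only, -0.17) and BAX (10 kb flanks, -0.095). The cause of these shifts was not tested.

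Leaving out 1 library gave 7 to 15 regions in SKBR3 alone, 1 in MDA-MB-453 alone, 6 to 20 gained and 2 to 8 lost in SKBR3, and 0 to 2 gained and 0 to 1 lost in MDA-MB-453. The share of all regions called in this way was not counted. Members called between the lines were 6 to 7 on rank, 3 to 6 on width and 6 to 9 on covered length, while the share of all genes called ran from 54% to 65.7%, 38.6% to 54.1% and 65.7% to 74.3%, and for TWEAK on covered length 0 to 3 in SKBR3 and 0 to 1 for the difference between lines, with shares of 0.162% to 8.92% and 0% to 3.5%. In SKBR3 alone, dropping the second untreated library gave 15 regions and dropping the first gave 12. The lowest width count, 3, came without MDA-MB-453 untreated replicate 2 or TWEAK replicate 1. The other member counts stayed at 0. Of the 31 gene values followed, 3 reversed under some alternative, as given above.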
